A study of Homo sapiens with 16 samples.

Results

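The 9 genes described here make or load the class I molecules of the major histocompatibility complex (MHC). They are the heavy chains HLA-B, HLA-C, HLA-E and HLA-F, the invariant light chain B2M, the peptide transporter subunits TAP1 and TAP2, and the immunoproteasome subunits PSMB8 and PSMB9. They were taken as a list by name, drawn up with earlier results of these data known and with no cut-off on a measured value, from 35359 genes that had a transcript in the deposited tables. All 9 passed the filter on low counts, as did 17705 genes in all. K562 is an established human leukaemia line, known for low class I on its surface, and every library carried the label of wild-type cells. PMA, a phorbol ester that activates protein kinase C, was given at 25 nM to bring the cells to a megakaryocyte-like state. Libraries of total RNA were made after removal of ribosomal RNA, 2 at each of 8 time points. The first was 0 h, the untreated control, and the last 72 h, with 0.5, 1.5, 3, 6, 24 and 48 h between them. The medium was changed after 24 and 48 h, so time in PMA and the change of medium cannot be told apart at the late times. The labels do not say whether the 2 libraries of a time point came from separate cultures, so each p-value measures the spread between these libraries, which may be technical.

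A class I molecule is a heavy chain bound to beta-2-microglobulin, the product of B2M, and to a short peptide. The proteasome cuts the peptide from proteins of the cytosol, and PSMB8, PSMB9 and PSMB10 are the catalytic subunits that replace the standard ones in the immunoproteasome. The TAP1 and TAP2 subunits together carry the peptide into the endoplasmic reticulum, where tapasin and chaperones hold the empty class I molecule until it is loaded. HLA-B and HLA-C present peptides to T cells and bind receptors of natural killer cells, HLA-E presents peptides from the leader sequences of other class I chains to the natural killer receptor CD94/NKG2A, and HLA-F is a nonclassical chain. K562 cells are a standard target of natural killer cells in the laboratory.

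Most of these genes lie in the MHC on chromosome 6, a region for which the transcript set of the deposited tables holds several alternative copies. Of the estimated reads of a gene over the 16 libraries, the share on transcripts of such copies was 100% for HLA-C, 99.9% for HLA-F, 98.0% for PSMB8, 97.2% for PSMB9, 93.2% for TAP1, 87.0% for HLA-B and 83.7% for TAP2. For HLA-E the share was 12.2%, and for B2M, which lies on chromosome 15, it was 15.2%. The copies were therefore added to their genes by symbol. With the primary annotation alone, only HLA-E, B2M, TAP1 and TAP2 could be tested, and TAP1 then kept 233 of its reads. A further 2922 transcripts, with 1.28 to 1.88% of a library's reads, could be assigned to no gene. Among them, 20 transcripts shared a length with a transcript of HLA-B and carried 24936 reads, against the 321 reads assigned to HLA-B by name in all libraries together. Likewise 12640 reads lay on transcripts with a length of HLA-F, against 397, 8412 with a length of HLA-C, against 1826, and 1081 with a length of PSMB8, against 1111. A shared length does not show that a transcript belongs to a gene. The levels of HLA-B, HLA-C, HLA-F and PSMB8 given here hold for the transcripts named for them. Where adding the transcripts of equal length ends a call, the new value is given with the gene. The same holds where it turns the direction of a value called with or without them. Some values called in neither case also change sign, and these are not all given.

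**Figure D1:**
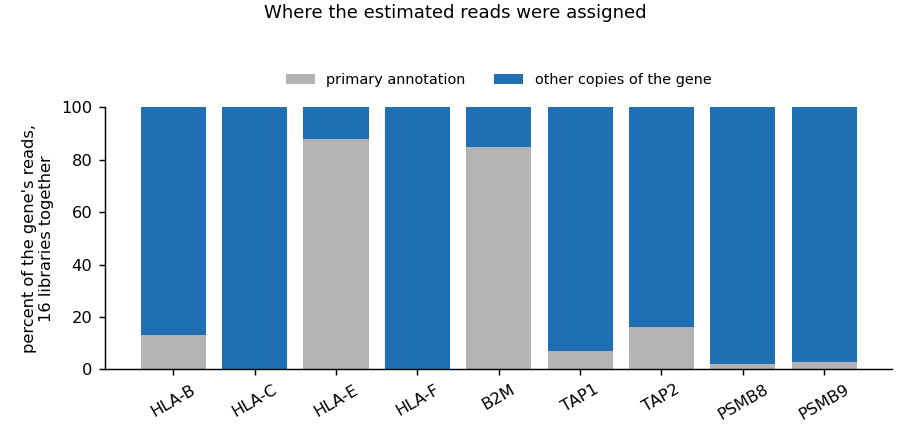
Percent of each gene's estimated reads, 16 libraries together, on transcripts of the primary annotation (grey) and on transcripts of other copies of the gene (blue). HLA-E and B2M had 12.2% and 15.2% of their reads on other copies, and the other 7 genes 83.7% or more.

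In GRCh38 with GENCODE release 29, HLA-B (ENSG00000234745) spans chr6:31269491-31357188 and HLA-C (ENSG00000204525) chr6:31268749-31272130, both on the minus strand and overlapping by 2640 bases. HLA-E (ENSG00000204592) spans chr6:30489467-30494205 and HLA-F (ENSG00000204642) chr6:29722775-29738528, both on the plus strand. B2M (ENSG00000166710) spans chr15:44711487-44718877 on the plus strand. TAP2 (ENSG00000204267, chr6:32821833-32838780), PSMB8 (ENSG00000204264, chr6:32840717-32844703) and TAP1 (ENSG00000168394, chr6:32845209-32853978) lie next to each other on the minus strand. PSMB9 (ENSG00000240065, chr6:32844136-32859585) runs the other way, over TAP1 and the end of PSMB8. TAP2 also overlaps a protein-coding gene model on the same strand, ENSG00000250264, which held 411 reads. Whether the counting used strand is not given in the sources used here. Reads of the class I heavy chains, which are alike in sequence, may have been split between them.

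The promoters of class I genes are known for a shared layout, with an interferon-stimulated response element bound by IRF factors, kappa-B sites bound by NF-kappa-B, and an X and Y box module bound by RFX, CREB or ATF1 and NF-Y. Promoter windows from RefSeq (GRCh38.p14), from 250 bases before to 50 bases after a start site, were found for 8 of the 9 genes, the exception being HLA-E. There were 10 windows, 2 each for TAP1 and PSMB8. The 250 bases before the start site are shown for 5 genes, for comparison with their courses below: HLA-B, HLA-C and B2M, which were higher at 72 h, and TAP1 and TAP2, which were lower at 6 h. They are written 5′ to 3′ on the strand of the gene, and capitals mark every match, on either strand, to 4 kinds of letters. These were the core of the interferon-stimulated response element (GAAA, any 2 bases, GAAA), ATTGG (the inverted CCAAT box of NF-Y), TGACG (the short core bound by CREB and ATF1) and kappa-B-like letters (GGGA or GGGG, any 3 bases, CCC, or GGGA, any 2 bases, TCCC), whose patterns overlap one another.
HLA-B (chr6:31357180-31357429, minus strand): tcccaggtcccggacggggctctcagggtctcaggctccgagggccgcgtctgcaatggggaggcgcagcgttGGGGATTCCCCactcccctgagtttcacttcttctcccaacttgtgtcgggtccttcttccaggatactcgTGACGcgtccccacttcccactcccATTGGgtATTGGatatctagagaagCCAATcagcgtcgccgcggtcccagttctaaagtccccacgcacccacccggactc
HLA-C (chr6:31272093-31272342, minus strand): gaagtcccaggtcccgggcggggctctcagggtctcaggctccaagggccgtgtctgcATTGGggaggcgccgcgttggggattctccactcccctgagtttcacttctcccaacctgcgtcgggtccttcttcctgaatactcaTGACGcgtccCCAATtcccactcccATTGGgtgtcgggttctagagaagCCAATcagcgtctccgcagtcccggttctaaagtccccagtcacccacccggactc
B2M (chr15:44711267-44711516, plus strand): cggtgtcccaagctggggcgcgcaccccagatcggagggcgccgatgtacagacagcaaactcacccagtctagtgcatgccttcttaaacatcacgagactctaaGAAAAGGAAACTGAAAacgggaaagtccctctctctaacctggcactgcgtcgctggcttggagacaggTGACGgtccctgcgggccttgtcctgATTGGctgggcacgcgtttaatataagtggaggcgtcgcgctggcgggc
TAP1 (chr6:32853705-32853954, minus strand): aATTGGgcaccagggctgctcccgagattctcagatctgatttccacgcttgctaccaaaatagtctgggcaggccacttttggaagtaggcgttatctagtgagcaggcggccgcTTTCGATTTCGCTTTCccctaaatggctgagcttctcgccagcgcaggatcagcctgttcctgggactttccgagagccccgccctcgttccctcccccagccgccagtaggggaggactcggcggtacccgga
TAP2 (chr6:32838740-32838989, minus strand): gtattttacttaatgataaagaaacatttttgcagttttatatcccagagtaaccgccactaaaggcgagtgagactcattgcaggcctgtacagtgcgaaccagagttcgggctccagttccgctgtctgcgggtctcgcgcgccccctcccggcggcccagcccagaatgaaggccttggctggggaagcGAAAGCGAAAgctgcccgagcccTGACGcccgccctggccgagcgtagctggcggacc
The interferon-stimulated core was found in windows of 5 genes, HLA-F, B2M, TAP1, TAP2 and PSMB8, against 3.57% of all 34943 RefSeq windows of 300 bases. Only exact matches to this core were searched, so an element with other letters, as HLA-B or HLA-C may hold, would be missed. B2M and the upstream window of TAP1 each held 2 overlapping matches, starting 144 and 138 bases before the start site in B2M and 134 and 128 bases before it in TAP1. The PSMB8 match, TTTCGCTTTC, runs across one of the 2 start sites of the gene. ATTGG was found in windows of 6 genes against 34.6% of all windows, and TGACG in windows of 6 genes against 24.5%. HLA-B was the one gene of the 8 with a match to the kappa-B-like letters spelled out above, GGGGATTCCC overlapping GGGATTCCCC, starting 177 and 176 bases before the start site. The pattern that opens with GGGG was present in 9.08% of all windows, and that with GGGA and any 3 bases in 7.58%. The wider kappa-B consensus with purine and pyrimidine letters, searched afterwards and not marked by capitals, was met in windows of 4 genes, against 11.3% of all windows. These were HLA-B at the same place, HLA-C (gggattctcc, 172 bases before the start site), B2M (ggaaagtccc, 125 bases before it) and TAP1 (gggactttcc, 72 bases before it, and a second match after it). The start sites of TAP1 and PSMB9 point away from each other and lie 488 bases apart. A match describes the letters of the reference genome, and binding was not measured.

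Expression spanned several orders of magnitude. In TPM, which divides reads by transcript length and scales them to a common total, so that genes can be compared, B2M had 757 ± 86.2 (SD, n = 2) at 0 h and was the gene with rank 165 among the 17705 tested. HLA-E followed with 48.6 ± 1.63 TPM, then TAP2 with 13.9 ± 0.995. TAP1 (4.30 ± 0.244 TPM), PSMB8 (4.28 ± 0.529) and PSMB9 (3.96 ± 0.0353) came next, with overlapping libraries between neighbours in this order. HLA-C had 2.71 ± 0.587 TPM, HLA-F 0.767 ± 0.00256 and HLA-B 0.138 ± 0.0924, the last at rank 16445. HLA-E thus made up 93.8 and 92.4% of the summed TPM of the 4 heavy chains in the 0 h libraries, and 90.7 to 95.5% over all 16 libraries. At 72 h B2M reached 1718 ± 41.0 TPM (rank 51) and HLA-E 157 ± 0.104. HLA-C, with 9.0 ± 0.478 TPM, stood above PSMB8 (6.59 ± 0.562), TAP1 (4.17 ± 0.114) and PSMB9 (3.13 ± 0.377) at that time, with no overlap between its libraries and theirs. HLA-B (1.52 ± 0.142 TPM) and HLA-F (1.01 ± 0.709) remained lowest, and their libraries overlapped. The summed heavy chains had 50.6 and 53.8 TPM in the 0 h libraries and 168 and 170 at 72 h. B2M exceeded that sum by 16.2- and 12.9-fold at 0 h and by 10.4- and 9.94-fold at 72 h. These shares and the order of the heavy chains depend on the transcripts of equal length. With them added, HLA-E made up 29.1 and 34.6% of the summed heavy chains at 0 h and 51.7 and 56.1% at 72 h. The HLA-E share was below that of HLA-B in both libraries at 0.5, 1.5, 3 and 6 h. At 6 h it was 38.1 and 35.9% against 46.3 and 47.7%, and at 24 h 38.8 and 41.4% against 41.6 and 39.8%. B2M exceeded the sum by 4.24- and 4.11-fold at 0 h and by 5.60- and 5.89-fold at 72 h. HLA-B then had 43.8 ± 18.8 TPM at 0 h and 86.3 ± 23.5 at 72 h, HLA-C 33.6 ± 3.25 and 35.4 ± 5.48, and HLA-F 49.1 ± 3.0 and 16.9 ± 0.437, beside 58.5 ± 1.61 and 161 ± 0.0658 for HLA-E. The B2M values count all its transcripts. Of its reads, 46.2% lay on a coding transcript of 933 nt and 3.67% on a coding one of 1675 nt. Transcripts of 604, 580 and 407 nt, not annotated as coding, held 8.49, 13.8 and 8.88%, and a copy of 604 nt held 14.3%. Division by length gives reads on short transcripts more weight.

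**Figure D2:**
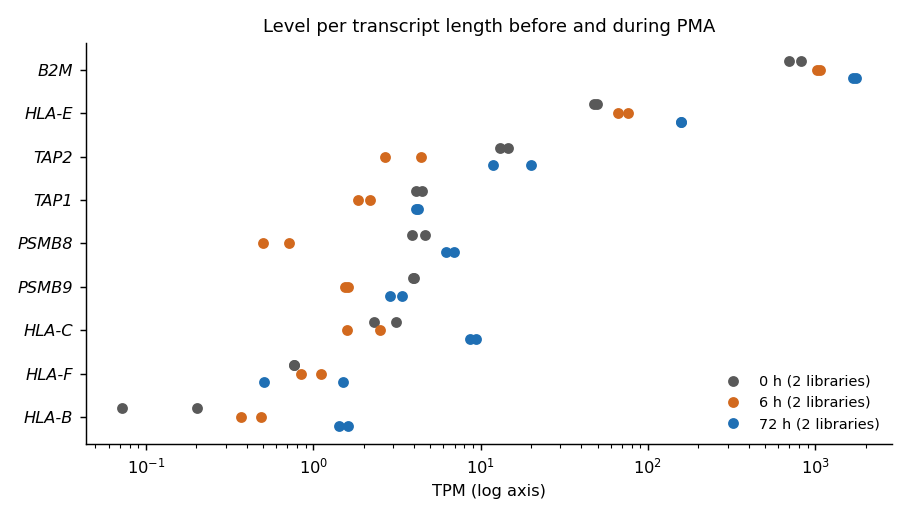
TPM on a log axis for each gene in the 2 libraries at 0 h (grey), 6 h (orange) and 72 h (blue), in the order of the 0 h mean. B2M had 757 TPM and HLA-B 0.138 TPM at 0 h on average, and TAP1, TAP2, PSMB8 and PSMB9 were lower at 6 h than at 0 h in both libraries.

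Levels below are in CPM, the counts of a gene scaled to a common library total with TMM factors, which suit comparisons of 1 gene between libraries. HLA-B, HLA-E and B2M were called higher from 3 h onward and HLA-C from 48 h, though each of these first calls was lost under some setting or without 1 library. TAP1, TAP2 and PSMB8 were lower at 6 h than at 0 h. PSMB9 was lower from 24 h, and HLA-F was not called against 0 h at any time. An edgeR quasi-likelihood test of any change over the 8 time points called 8 of the 9 genes at an adjusted p under 0.05, all but HLA-F (adjusted p = 0.0917), where 84.2% of all tested genes were called. In bulk RNA, a change in the number of cells of one kind and a change of RNA per cell cannot be told apart.

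**Figure D3:**
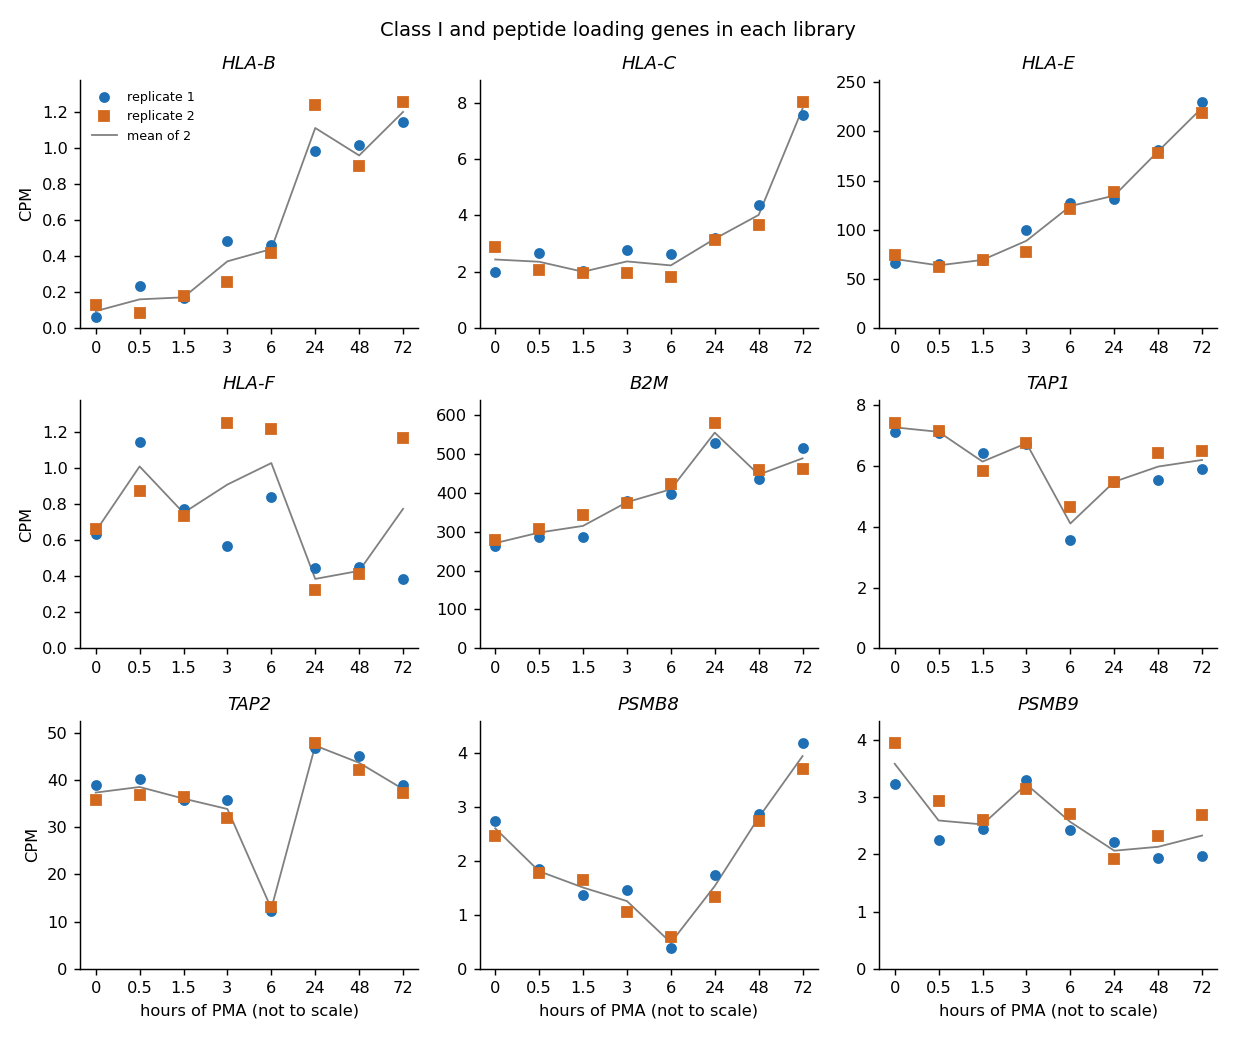
CPM of each gene in each of the 16 libraries (circles, replicate 1; squares, replicate 2; line, mean of 2), against hours of PMA with the time points evenly spaced. HLA-E rose from 65.6 and 74.7 CPM at 0 h to 230 and 218 CPM at 72 h, and TAP2 had 12.3 and 13.2 CPM at 6 h against 31.9 CPM or more at every other time.

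B2M, the light chain that every class I molecule needs, had 263 and 278 CPM at 0 h, 396 and 422 at 6 h, 529 and 580 at 24 h, 435 and 458 at 48 h, then 515 and 462 at 72 h. No library from 0.5 h on was as low as those at 0 h, and both 24 h libraries stood above all others. The log2 fold change against 0 h was 0.47 ± 0.104 (SE) at 3 h (edgeR, adjusted p = 0.00188), 0.60 ± 0.104 at 6 h (adjusted p = 0.000169), 1.04 ± 0.104 at 24 h (adjusted p = 9.26e-07) and 0.85 ± 0.104 at 72 h (adjusted p = 5.86e-06). B2M was thus 2.05-fold higher at 24 h. The step from 24 to 72 h, -0.18 ± 0.103, was not called (adjusted p = 0.217). When libraries were scaled to total counts instead of TMM, which shifted the median of all genes by -0.28 at 3 h, the 3 h value was 0.20 and not called (adjusted p = 0.0704). With GC trends removed it was 0.26 (adjusted p = 0.0697), and with only the compared time points 0.46 (adjusted p = 0.0676).

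HLA-E, the most abundant heavy chain by the transcripts named for it, had 65.6 and 74.7 CPM at 0 h, 100 and 77.3 at 3 h, 127 and 121 at 6 h, 131 and 139 at 24 h, 181 and 178 at 48 h, then 230 and 218 at 72 h. The libraries of each time from 6 h on lay above those of every earlier time. The log2 fold change was 0.82 ± 0.111 at 6 h (edgeR, adjusted p = 1.55e-05), 0.94 ± 0.111 at 24 h (adjusted p = 4.69e-06), 1.36 ± 0.112 at 48 h (adjusted p = 1.06e-07) and 1.68 ± 0.113 at 72 h (adjusted p = 1.03e-08), or 3.19-fold. It rose in 2 steps, from 3 to 6 h (0.48 ± 0.110, adjusted p = 0.00258) and from 24 to 72 h (0.73 ± 0.110, adjusted p = 0.000219). Between 6 and 24 h no change was called (0.12 ± 0.110, adjusted p = 0.367), and this interval turned to -0.22 and was called when trends with GC content were removed. The 3 h value of 0.34 ± 0.111 (adjusted p = 0.0227) was not called without replicate 1 at 0 h (0.25) or without replicate 1 at 3 h (0.14), nor with scaling to total counts (0.05), the transcripts of equal length added (0.28) or only the compared time points (0.33).

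HLA-C, a classical chain that is also a main ligand of natural killer inhibitory receptors, stayed low for a day and rose late. It had 1.99 and 2.87 CPM at 0 h, 2.64 and 1.80 at 6 h, 3.20 and 3.14 at 24 h, 4.37 and 3.67 at 48 h, then 7.57 and 8.02 at 72 h. The 0 h libraries overlapped with those of 0.5 to 6 h, and both 72 h libraries were above all others. On the log2 scale, the fold change was 0.38 ± 0.240 at 24 h (edgeR, adjusted p = 0.182), 0.72 ± 0.238 at 48 h (adjusted p = 0.0186) and 1.68 ± 0.235 at 72 h (adjusted p = 2.28e-05), or 3.21-fold. The step from 24 to 72 h was 1.30 ± 0.228 (adjusted p = 0.000759). The 48 h call was lost without replicate 1 at 0 h (0.49) or without replicate 1 at 48 h (0.60), and with scaling to total counts (0.56). With the transcripts of equal length added, the 72 h value was 0.28 (adjusted p = 0.0429), the 48 h value 0.16 and not called (adjusted p = 0.245), and the 24 h value -0.29 (adjusted p = 0.036). The 3 h value turned to 0.29 and the step from 6 to 24 h to -0.44, both called, while the step from 24 to 72 h was 0.57 (adjusted p = 0.00161).

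HLA-B was close to the limit of detection before PMA. It had 2 and 4 reads at 0 h, where a floor of 3 reads stands for 0.0563 to 0.111 CPM over the libraries, and passed the low-count filter through its late libraries. Its level was 0.0603 and 0.126 CPM at 0 h, 0.484 and 0.257 at 3 h, 0.461 and 0.417 at 6 h, 0.982 and 1.24 at 24 h, 1.02 and 0.903 at 48 h, then 1.15 and 1.25 at 72 h. Every library from 24 h on exceeded every earlier library. The 83 reads at 72 h against 6 at 0 h gave a ratio of 12.9 after scaling, with a 95% interval of 5.70 to 36.3 that covers counting error only. At 24 h the ratio was 12.3 (5.45 to 34.4) and at 6 h 4.72 (1.87 to 14.2). In the edgeR fit HLA-B was called higher than at 0 h from 3 h on. Since it could be tested only through the libraries where it is high, these calls describe it and add no support to the ratios. The 3 h call was lost without replicate 1 at 0 h (1.55) or without replicate 1 at 3 h (1.44). With the transcripts of equal length added, which lift HLA-B well above the floor at 0 h, the log2 fold change was 0.94 at 72 h (edgeR, adjusted p = 0.00152) and 1.20 at 24 h (adjusted p = 0.000232), and the step from 6 to 24 h was -0.26 and not called. One of those transcripts held 91.9% of the reads added. HLA-B and HLA-C, which overlap, together had 2.05 and 3.00 CPM at 0 h, 4.18 and 4.38 at 24 h, then 8.72 and 9.27 at 72 h.

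HLA-F had 0.633 and 0.663 CPM at 0 h, 0.838 and 1.22 at 6 h, 0.444 and 0.326 at 24 h, then 0.383 and 1.16 at 72 h. The libraries of 3 h and of 72 h lay on both sides of those at 0 h. No time was called against 0 h, and the 72 h value was 0.23 ± 0.477 (edgeR, adjusted p = 0.690). It fell from 6 to 24 h by 1.45 ± 0.497 on the log2 scale (adjusted p = 0.0221), a call lost without replicate 2 at 6 h (-1.16) or without replicate 2 at 24 h (-1.26). With the transcripts of equal length added, HLA-F was called lower at 3 h (-0.79), 6 h (-3.90), 24 h (-1.23), 48 h (-1.44) and 72 h (-1.80). Of those transcripts, 1 held 98.2% of the added reads. The step from 6 to 24 h then turned to 2.67, that from 3 to 6 h to -3.11 and that from 24 to 72 h to -0.57, all called.

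Both transporter subunits fell between 3 and 6 h, and TAP2 was back above its 0 h level by 24 h. TAP2 had 38.9 and 35.8 CPM at 0 h, 35.8 and 31.9 at 3 h, 12.3 and 13.2 at 6 h, 46.8 and 47.8 at 24 h, then 38.9 and 37.2 at 72 h. Both 6 h libraries were far below all others, and both 24 h libraries above all others. The log2 fold change at 6 h was -1.55 ± 0.0995 (edgeR, adjusted p = 6.49e-09), or 2.92-fold lower, and the step from 6 to 24 h was 1.89 ± 0.0996 (adjusted p = 2.38e-09). At 24 h TAP2 was 0.34 ± 0.0932 above 0 h (adjusted p = 0.00597), which was not called without replicate 2 at 24 h (0.30) or with scaling to total counts (0.09). At 72 h the difference from 0 h was 0.03 ± 0.0935 (adjusted p = 0.812).

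TAP1 had 7.12 and 7.42 CPM at 0 h, 6.73 and 6.76 at 3 h, 3.56 and 4.65 at 6 h, 5.48 in both libraries at 24 h, then 5.91 and 6.49 at 72 h. The 6 h libraries were again the lowest of all. On the log2 scale, the fold change at 6 h was -0.82 ± 0.157 (edgeR, adjusted p = 0.000406), or 1.76-fold lower. The 24 h value of -0.41 ± 0.151 (adjusted p = 0.0318) was lost when any 1 of the 4 libraries was left out, with values of -0.44 to -0.37, and those of 48 and 72 h, -0.28 ± 0.151 and -0.23 ± 0.151, were not called. The return from 6 to 24 h, 0.41 ± 0.158 (adjusted p = 0.0379), was lost without replicate 1 at 6 h (0.22), or without replicate 1 (0.42) or 2 (0.37) at 24 h, and with GC trends removed (0.19). With the transcripts of equal length added, neither the 24 h value (-0.41, adjusted p = 0.0989) nor the return (0.32, adjusted p = 0.214) was called. The 6 h value was then -0.73 (adjusted p = 0.00853), and the 48 h value turned to 0.14 and was not called (adjusted p = 0.593).

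PSMB8, the immunoproteasome subunit that stands in for PSMB5, was also lowest at 6 h. It had 2.75 and 2.46 CPM at 0 h, 1.38 and 1.64 at 1.5 h, 1.45 and 1.06 at 3 h, 0.377 and 0.590 at 6 h, 1.74 and 1.32 at 24 h, 2.87 and 2.74 at 48 h, then 4.18 and 3.70 at 72 h. The 26 reads of the 2 libraries at 6 h compared with 169 at 0 h and 274 at 72 h, and the groups of 0, 6 and 72 h did not overlap. The log2 fold change was -1.04 ± 0.234 at 3 h (edgeR, adjusted p = 0.0023), -2.40 ± 0.277 at 6 h (adjusted p = 3.01e-06), or 5.28-fold lower, and -0.78 ± 0.228 at 24 h (adjusted p = 0.00914). The rise from 6 to 24 h was 1.62 ± 0.285 (adjusted p = 0.000234) and from 24 to 72 h 1.38 ± 0.223 (adjusted p = 0.000416). The 72 h level was 0.60 ± 0.216 above 0 h (adjusted p = 0.0274), a call lost without replicate 1 (0.68) or 2 (0.52) at 0 h or replicate 1 at 72 h (0.51). That call was also lost with DESeq2 (0.65), counts from TPM (0.61), scaling to total counts (0.44) and only the compared time points (0.56). The 24 h call was lost without replicate 1 at 0 h (-0.69) or replicate 2 at 24 h (-0.61), and the 1.5 h call (-0.79 ± 0.230, adjusted p = 0.0296) without any 1 of its 4 libraries, with values of -0.92 to -0.67. With the transcripts of equal length added, the 6 h value was -0.95 and not called (adjusted p = 0.0849), nor was the rise from 6 to 24 h (0.14, adjusted p = 0.816) or from 24 to 72 h (0.69, adjusted p = 0.274). The 3 h value then turned to 0.48 and the 72 h value to -0.13, neither of them called, and the 1.5 and 24 h values of -0.39 (adjusted p = 0.569) and -0.82 (adjusted p = 0.12) lost their calls. The low point and the return of PSMB8 thus hold for the transcripts named for it.

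PSMB9, the subunit that stands in for PSMB6, had 3.23 and 3.95 CPM at 0 h, 2.43 and 2.71 at 6 h, 2.22 and 1.91 at 24 h, 1.94 and 2.33 at 48 h, then 1.97 and 2.69 at 72 h. All libraries from 24 h on were below both 0 h libraries. On the log2 scale, the fold change was -0.48 ± 0.215 at 6 h (edgeR, adjusted p = 0.0708), -0.80 ± 0.212 at 24 h (adjusted p = 0.00492), -0.75 ± 0.213 at 48 h (adjusted p = 0.00822) and -0.62 ± 0.212 at 72 h (adjusted p = 0.0203). The 48 h call was lost without replicate 2 at 0 h (-0.59) or replicate 1 at 48 h (-0.62), and the 72 h call without replicate 2 at 0 h (-0.47) or replicate 1 at 72 h (-0.41). From counts derived from TPM, the 6 h value was -1.0 (adjusted p = 0.00229) and the 72 h value -0.37 (adjusted p = 0.184). With the transcripts of equal length added, the 24 h value was -0.81 (adjusted p = 0.00362), but the 48 h value was -0.48 (adjusted p = 0.0603) and the 72 h value -0.06 (adjusted p = 0.803), and a step from 24 to 72 h of 0.75 was called (adjusted p = 0.0144).

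The transcripts behind TAP1 and PSMB9 differed in kind. Copies have no transcript type in the annotation used, so each was given the type of the annotated transcript of its gene with a length within 2 nt. By that measure 73.8% of the PSMB9 reads lay on transcripts of the length of a retained-intron model and 26.1% on the length of a coding model, and for TAP1 the shares were 51.5 and 41.7%. Coding-length PSMB9 had 0.942 and 0.904 CPM at 0 h, 0.222 and 0.208 at 6 h, then 0.833 and 0.790 at 72 h, while the retained-intron length had 2.26 and 3.05, 2.21 and 2.50, and 1.12 and 1.89. Coding-length TAP1 had 3.34 and 4.32 CPM at 0 h and 0.851 and 0.877 at 6 h, against 3.49 and 3.10 and then 2.72 and 3.78 for the retained-intron length. The 6 h libraries were thus below the 0 h libraries in the coding length of both genes, and overlapped with them in the retained-intron length. These parts of a gene were not tested, and they rest on the authors' division of reads between transcripts of similar sequence. For PSMB8, 84.3% of the reads lay on coding lengths, with 2.36 and 2.06 CPM at 0 h, 0.377 and 0.523 at 6 h, then 3.62 and 2.82 at 72 h.

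Counted over the 9 genes, 0 were called at 0.5 h, where 0.175% of all tested genes were higher and 0.00565% lower. That background rests on 1 control library: without replicate 1 at 0 h, 3786 of all genes were called at 0.5 h in place of 32, and the 3173 called at 1.5 h became 5197 without replicate 1 and 1071 without replicate 2 at 0 h. At 1.5 h, 0 of the 9 were higher and 1 was lower, against 9.39 and 8.53% of all tested genes. The 3 h libraries had 3 higher and 1 lower, against 21.8 and 20.8% of all genes, and the 6 h libraries 3 higher and 3 lower, against 28% and 29.8%. After a day 4 were higher and 3 lower, against 32% and 27.1%. The 48 h libraries had 4 higher and 1 lower, against 30.5 and 24.6%, and the 72 h libraries 5 higher and 1 lower, against 31.9 and 27.4%. The 5 genes higher at 72 h were HLA-B, HLA-C, HLA-E, B2M and PSMB8, and the lower one was PSMB9. The calls of PSMB8 and PSMB9 at that time were lost under some settings or without 1 library. Between 3 and 6 h, 1 gene rose and 3 fell, against 19.2 and 22.5% of all genes. Between 6 and 24 h, 5 rose and 1 fell, against 31.2 and 26.3%, and between 24 and 72 h, 3 rose and 1 fell, against 14.3 and 12.9%. HLA-B is among the higher genes at each time from 3 h on. A count whose share is near that of all genes says nothing particular of the 9. The median log2 fold change of the 9 genes was -0.14 at 6 h and 0.60 at 72 h, against 0.00 and -0.03 over all tested genes. All comparisons against 0 h share the same 2 libraries. The counts moved by over 1.5 times with single libraries left out: 0 genes at 1.5 h without any 1 of its 4 libraries, 2 genes at 3 h without replicate 1 at 0 h or replicate 1 at 3 h, 4 at 24 h without replicate 2 at 24 h, 3 at 48 h without replicate 1 at 48 h, and 2 from 6 to 24 h without replicate 2 at 24 h.

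**Figure D4:**
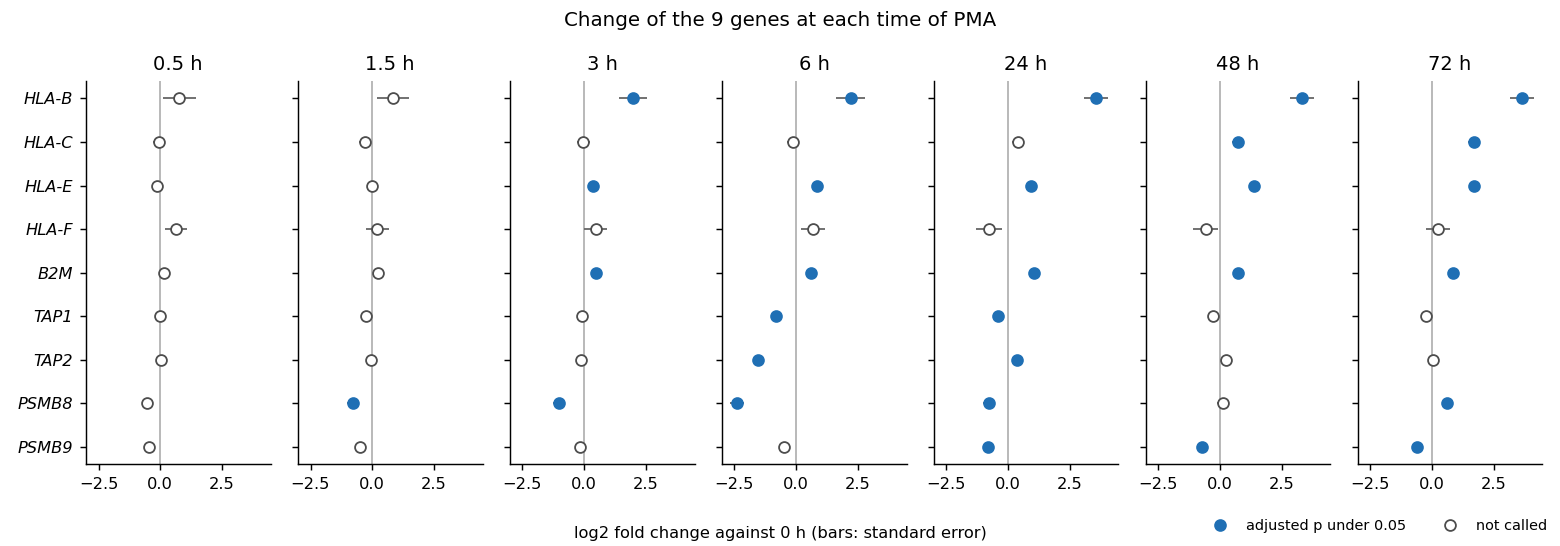
Log2 fold change against 0 h with its standard error for the 9 genes at each time of PMA (filled, adjusted p under 0.05; open, not called). At 6 h HLA-B, HLA-E and B2M lay above 0 and TAP1, TAP2 and PSMB8 below it, and at 72 h PSMB9 (-0.62) was the one called gene below 0.

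The other genes of the pathway were described in 7 lists of 64 genes, of which 60 could be tested. Of the 7 genes for peptide loading, chaperones and trimming, 2 rose and 2 fell at 6 h, and at 72 h 6 rose and 0 fell, with a median log2 fold change of 0.84 against -0.03 for all genes. Of all tested genes, 28% rose and 29.8% fell at 6 h, and 31.9% rose and 27.4% fell at 72 h. At 6 h the fallers were the trimming peptidases ERAP1 (-0.54 ± 0.116, adjusted p = 0.000979) and ERAP2 (-0.70 ± 0.208, adjusted p = 0.00923), and without replicate 1 at 6 h 2 of the 7 were called. ERAP2 went from 3.81 ± 0.967 CPM at 0 h to 2.33 ± 0.335 after 6 h and 7.65 ± 0.651 after 72 h (1.00 ± 0.192, adjusted p = 0.000396). TAPBP, which encodes tapasin, rose to 306 ± 34.9 CPM at 72 h from 195 ± 20.9, and 97.0% of its reads also lay on other copies of the gene. TAPBPL, a tapasin-like peptide editor, had the largest called change at 72 h (1.11 ± 0.333, adjusted p = 0.0103). The chaperone calnexin, CANX, was the most abundant, with 978 ± 134 CPM at 0 h and 1100 ± 184 at 72 h (0.17 ± 0.122, adjusted p = 0.239).

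Of 8 proteasome subunits and activators, 2 rose and 4 fell at 6 h, and 3 rose and 1 fell at 72 h (median 0.12), beside 28% and 29.8% and then 31.9% and 27.4% of all tested genes. PSMB10, the third immunoproteasome subunit, fell at 6 h by 1.09 ± 0.217 on the log2 scale (adjusted p = 0.000563), from 12.2 ± 4.19 to 5.74 ± 0.117 CPM, and had 10.5 ± 0.0576 CPM at 72 h. POMP, the assembly factor of proteasomes, rose to 160 ± 18.7 CPM at 72 h from 63.9 ± 1.25 (1.32 ± 0.123, adjusted p = 3.42e-07). The standard subunit PSMB7 rose to 188 ± 28.9 CPM from 114 ± 9.66, and the activator PSME3 fell to 85.1 ± 4.0 from 163 ± 8.23 (-0.93 ± 0.0933, adjusted p = 7.53e-07).

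Of 16 transcription factors tied to class I genes, 6 rose and 7 fell at 6 h, where 28% and 29.8% of all genes did, and 8 rose and 3 fell at 72 h, where 31.9% and 27.4% did. The fallers at 72 h were the 3 subunits of the RFX complex, which binds the X box. RFXAP had 8.73 ± 2.20 CPM at 0 h, 1.19 ± 0.453 at 6 h (-2.89 ± 0.290) and 3.10 ± 0.447 at 72 h (-1.49 ± 0.255, adjusted p = 0.000151). RFX5 had 42.4 ± 0.540, 12.7 ± 1.09 and 26.2 ± 1.69 CPM at those times, and RFXANK 44.9 ± 9.18, 18.3 ± 0.500 and 17.9 ± 0.287. NFYA, a subunit of NF-Y, rose to 84.8 ± 9.05 CPM at 72 h from 26.1 ± 0.392. STAT2, which acts downstream of type I interferon, fell to 47.6 ± 1.72 CPM at 6 h and rose to 136 ± 5.14 at 72 h, from 83.0 ± 1.50. NLRC5, the class I transactivator, was near the limit of detection, with at most 17 reads in any library, 0.370 ± 0.0121 CPM at 0 h and 0.387 ± 0.0713 at 72 h (named after its values were seen).

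Of 6 core genes of Polycomb repressive complex 2, a histone methyltransferase known to silence class I genes in some tumours, 2 rose and 2 fell at 6 h (28% and 29.8% of all genes), and 0 rose and 3 fell at 72 h (31.9% and 27.4%). With GC trends removed, 6 of the 6 were called at 72 h. EZH2, a catalytic subunit, fell from 168 ± 8.79 CPM at 0 h to 65.3 ± 5.95 at 72 h (-1.37 ± 0.0886, adjusted p = 6.98e-09), and EZH1 from 36.4 ± 0.669 to 24.3 ± 0.270. RBBP4 had 395 ± 53.1 and 328 ± 65.6 CPM (-0.27 ± 0.124, adjusted p = 0.0762). Of 6 genes of the interferon gamma receptor path, 4 rose and 0 fell at 6 h, and 5 rose and 0 fell at 72 h, with a median of 0.77, against the same shares of all genes. The kinase JAK1 rose from 115 ± 9.19 to 463 ± 38.2 CPM and the feedback inhibitor SOCS1 from 3.50 ± 1.62 to 31.7 ± 11.9 CPM at 72 h.

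Among the class I related molecules and ligands of the natural killer receptor NKG2D, 8 of 9 could be tested, and HLA-G had at most 2 reads in any library. At 6 h 3 rose and 4 fell (28% and 29.8% of all genes), and at 72 h 3 rose and 1 fell (31.9% and 27.4%), or 2 called in all with only the compared time points. The stress ligands ULBP1 and ULBP2 went opposite ways: ULBP1 had 15.2 ± 0.443 CPM at 0 h, 0.895 ± 0.0382 at 6 h (-4.09 ± 0.175) and 4.37 ± 0.144 at 72 h (-1.80 ± 0.142), and ULBP2 had 0.448 ± 0.0364, 2.38 ± 0.113 (2.41 ± 0.276) and 25.6 ± 1.54 (5.83 ± 0.245). MICB fell to 11.7 ± 0.0436 CPM at 6 h from 37.1 ± 1.05 and had 42.7 ± 0.606 at 72 h. Of the 12 class II genes 9 could be tested, and 0 rose and 2 fell at 6 h, and 4 rose and 1 fell at 72 h, against the same shares of all genes. The 5 calls at 72 h became 3 with at least 10 counts in every library and 2 with the primary annotation alone. HLA-DRA, HLA-DRB1 and HLA-DMB had at most 4 reads in any library. HLA-DPA1, with 0.0919 ± 0.0406 CPM at 0 h and 1.68 ± 0.131 at 72 h, HLA-DPB1 (0.864 ± 0.0281 and 2.50 ± 0.485), HLA-DMA (0.619 ± 0.107 and 1.64 ± 0.457) and the invariant chain CD74 (0.99 ± 0.163 and 3.26 ± 0.750) were the 4 that rose. HLA-DPA1 was near the floor of 3 reads at 0 h and could be tested only through libraries where it is high. Its call therefore describes it and adds no support. The one that fell was CIITA, the class II transactivator, from 13.2 ± 1.35 to 8.13 ± 2.92 CPM (named after its values were seen). HLA-DOB fell at 6 h, to 0.254 ± 0.114 CPM from 1.12 ± 0.378 (-2.16 ± 0.393), as did HLA-DMA (-1.20 ± 0.490), and 1 of these 2 calls was left without replicate 1 or 2 at 0 h or replicate 2 at 6 h.

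**Figure D5:**
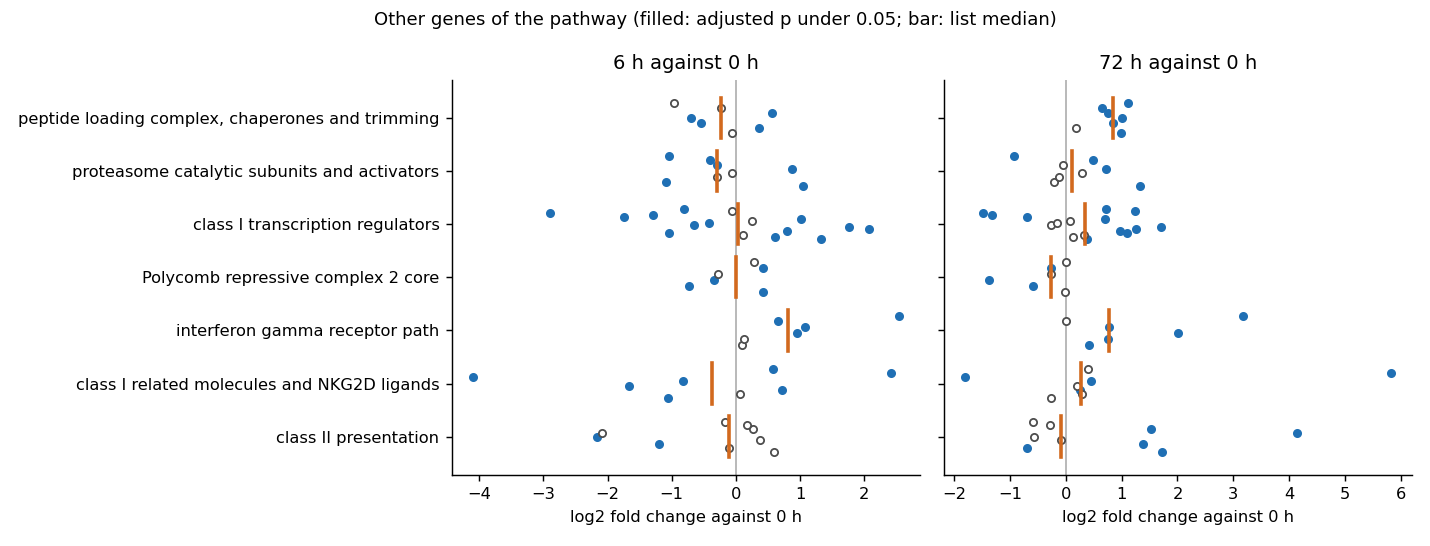
Log2 fold change at 6 h (left) and 72 h (right) against 0 h for the tested genes of the 7 pathway lists (filled, adjusted p under 0.05; open, not called; bar, median of the list). The median of the peptide loading list was -0.24 at 6 h and 0.84 at 72 h.

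Library totals were 27285773 to 54056289 estimated reads, which is the depth behind each value. Markers of the line itself were present, with summed levels of 1710 to 1910 CPM for 7 erythroid and K562 genes at 0 h and 1320 to 1780 at 72 h. Of markers of other cells, CD2 of T cells, MS4A1 of B cells, FCER1A of dendritic cells and KRT5 of epithelium had at most 3 reads in every library. The summed levels of 4 T and natural killer genes were 6.70 to 9.16 CPM at 0 h and 17.2 to 17.8 at 72 h, those of 4 B cell genes 2.08 to 2.15 and 1.50 to 1.68, and those of 4 monocyte and dendritic genes 71.2 to 71.3 and 50.4 to 58.5. LYZ made up most of this last sum, with 71.1 CPM at 0 h and 47.2 at 72 h, while CSF1R of the same list went from 0.0625 to 7.12 CPM. CSF1R was near the floor of 3 reads at 0 h. It could be tested only through libraries where it is high, so its levels are given without a test. PTPRC, a marker of all leukocytes, had 192 to 222 and 108 to 145 CPM. The 4 fibroblast and epithelial genes summed to 50.3 to 56.8 CPM at 0 h and 230 to 245 at 72 h, most of it COL1A1, which went from 3.4 to 203 CPM. The part of these genes' cells in the class I results was not tested.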

How the data were processed

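RNA of 16 K562 libraries was measured, 2 at each of 8 times of PMA. Per the file headers, the authors' deposited tables give for 177456 Ensembl transcripts an estimated count of reads, which carries no normalization and need not be whole, and TPM. Per the submitters' processing notes, Trim Galore 0.4.3 and Salmon were among the tools. Salmon's version, its settings and the transcript set are not given in the sources used here, and the notes name both hg19 and hg38.

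Transcripts were assigned by Ensembl identifier to genes of GENCODE release 29 (167027, or 94.1%), or else by the symbol that this release gives for a copy on an alternative sequence (7507, or 4.23%). The last step was chosen after the data were seen, as was the alternative without it. Counts were summed per gene and rounded. edgeR 4.0.16 in R 4.3.3 fitted all 8 time points together, with TMM factors of 0.856 to 1.139, its default low-count filter and the quasi-likelihood test. The model left 8 residual degrees of freedom and gave a common biological coefficient of variation of 0.115. A gene was called at a Benjamini-Hochberg adjusted p under 0.05 over the 17705 genes tested. Fold changes used a prior count of 0.125, CPM is relative to the TMM-scaled total, and errors are SD with n = 2 for levels and SE for fold changes. An exact permutation test of 2 against 2 libraries cannot reach p under 0.05. The script was tested on simulated data. Floors and intervals cover counting error only.

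The genes and lists were chosen with earlier results of these data known. The text names all 9 genes, and of each list the largest called change at 6 h and at 72 h, the highest mean CPM, and genes called at 72 h against the list's median. The alternatives were other scalings, filters, TPM-derived counts, assignments, GC correction, a replicate block, fits of fewer libraries, DESeq2 1.42.0 and a stricter threshold. Same-numbered libraries of different times deviated together with r between -0.14 and 0.234, so the numbers were not taken as pairs. Over long transcripts, the mean gap between length and the deposited effective length did differ by replicate number. It was 210 to 221 nt in replicate 1 and 230 to 249 nt in replicate 2 after 0 h. Replicate 2 at 0 h had 199 nt, outside both ranges, and every comparison against 0 h uses this library.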

Additional observations from a re-analysis of the deposited data

How the results depend on the processing

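Of 1097 values recomputed under an alternative setting other than leaving out a library, 1002 kept their direction and their side of the threshold, 61 lost a call, 18 gained one and 16 changed sign. A change of sign of a value called in neither fit was not counted. Of 360 values with 1 library left out, 322 were kept, 35 lost a call, 3 gained one and 0 changed sign. With the primary annotation only, an alternative chosen after the data were seen that left 4 of the 9 genes to test, the genes called were 2 over the course, 0 at 1.5 h, 2 at 3 h, 3 at 6 h, 2 at each of 24, 48 and 72 h, 1 between 3 and 6 h, 2 between 6 and 24 h, then 1 between 24 and 72 h. TAP1 then changed to 2.81 at 24 h against 0 h and to 0 from 3 to 6 h, with few reads left. At 1.5 h the count of 1 gene became 0 with at least 10 counts in every library, counts from TPM, transcripts of equal length added, only the compared time points, DESeq2 and an adjusted p under 0.01. At 3 h it was 2 with at least 10 counts in every library and 1 with only the compared time points, and from 24 to 72 h it was 2 with at least 10 counts in every library. Over the pathway lists, the calls at 0.5 h were 4 without a filter against 0, those at 1.5 h were 2 with only the compared time points and 2 at an adjusted p under 0.01 against 13, and those at 3 h were 16 with only the compared time points against 28.

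With 1 library left out, the number of the 9 genes called was 0 to 0 for 1.5 h, 2 to 4 at 3 h, 4 to 6 by 24 h, 3 to 5 at 48 h and 2 to 6 from 6 to 24 h. Over the pathway lists it was 0 to 13 at 0.5 h, with 13 without replicate 1 at 0 h, and 1 to 19 at 1.5 h. With transcripts of equal length added, the values that changed sign were, as log2 fold changes, HLA-B from 6 to 24 h (-0.261), HLA-C at 3 h (0.291), at 24 h (-0.291) and from 6 to 24 h (-0.435), HLA-F at 3 h (-0.788), 6 h (-3.9), 72 h (-1.8), from 3 to 6 h (-3.11), between 6 and 24 h (2.67) and from 24 to 72 h (-0.574), and PSMB8 at 3 h (0.482) and 72 h (-0.127). HLA-E from 6 to 24 h was -0.221 with GC trends removed and -0.22 with the replicate block as well. The causes were not tested. Across genes, the correlation of the fold change with GC content was -0.713 at 0.5 h, -0.364 at 1.5 h and -0.12 to 0.0146 at later times against 0 h.

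With the replicate number as a block, 8 genes were called over the course, 0 at 0.5 h, 1 at 1.5 h, 4 after 3 h, 6 at 6 h, 7 after 24 h and 6 at both 48 and 72 h. The block added a call for TAP2 at 48 h (0.225, adjusted p = 0.0433) and left 1 of 2 class II calls at 6 h. The 28 pairs of time points correlated at -0.14 to 0.234 in their deviations, 13 of them over 0.1.

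Depth limits HLA-B, HLA-F and PSMB8 most, with 321, 397 and 1111 reads in all libraries together.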

Other observations

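The genes whose course was most like those of HLA-B and B2M, by Pearson's r of log2 CPM over the 16 libraries among 11354 genes averaging 5 CPM or more, are given as a description, since the libraries share time points and totals. For HLA-B they were ANGPTL4 (r = 0.97), HGSNAT (0.967), a lysosomal enzyme of heparan sulfate breakdown, and DCSTAMP (0.966), a membrane protein of osteoclast fusion. ANGPTL4, a secreted inhibitor of lipoprotein lipase, had 0.153 CPM at 0 h and 33.6 at 72 h, and DCSTAMP 0.0302 and 145. For B2M they were MED14 (0.978), REPS1 (0.976) and CDC26 (0.975), with 74.0 and 119, 35.0 and 54.5, and 8.46 and 22.9 CPM at 0 and 72 h. Among the 9 genes themselves the highest r were 0.932 for HLA-B with B2M, 0.925 for HLA-B with HLA-E and 0.845 for HLA-E with B2M. Each r of HLA-B rests on the transcripts named for it, with 321 reads in all libraries together and 2 and 4 at 0 h. With the transcripts of equal length added, r was not computed.

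HLA-DQA1, a class II alpha chain, stood out by its level, with 292 ± 75.5 CPM at 0 h and 239 ± 35.6 at 72 h (SD, n = 2), while HLA-DRA had at most 2 reads in any library. Of its reads, 63.5% were assigned to 1 transcript of 7362 nt and 32.6% to 1 of 9013 nt, both on copies of the gene. Neither transcript has a type in the annotation used, so the level of HLA-DQA1 need not be that of a coding mRNA.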
